A study of Mus musculus with 9 samples.

Results

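The genes described here are the IGF binding proteins Igfbp2, Igfbp3, Igfbp4, Igfbp5, Igfbp6 and Igfbp7 and the IGF receptors Igf1r and Igf2r, taken by symbol from the deposited gene table. All 8 symbols were found among its 55359 genes, 6 of them binding proteins and 2 receptors. RNA had been sequenced from melanocyte stem cells, the reserve from which hair follicles draw their pigment cells, in 9 mouse libraries. The cells were sorted by fluorescence from skin, and every group, controls included, carried 1 knocked-in Dct-H2B-GFP allele (Dct-H2B-GFP KI/+), a green fluorescent histone reporter for Dct, an enzyme of melanin synthesis. The 3 groups of 3 libraries came from mice given vehicle, ionizing radiation (IR, 5 Gy) or DMBA, a polycyclic aromatic hydrocarbon that acts as a skin carcinogen after metabolic activation. The labels used here give neither age nor sex, no interval between treatment and sorting, and for DMBA no dose or route. Nothing in them tells whether replicates are separate animals, and p-values therefore cover variation among these libraries that may be partly technical.

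Insulin-like growth factors are secreted ligands that activate IGF1R, a receptor tyrosine kinase that signals through IRS adaptors to PI3 kinase and AKT and promotes growth and survival. IGF2R, also known as the cation-independent mannose 6-phosphate receptor, has no kinase domain: it takes up and degrades IGF2 and carries lysosomal enzymes to the lysosome. The binding proteins are secreted, hold IGFs away from IGF1R and are themselves cut by proteases such as PAPPA and MMP2, which releases the ligand. IGFBP3 is the main IGF carrier in blood and is made in skin by keratinocytes of the epidermis, and IGFBP7 binds IGFs only weakly. In skin, IGF1 comes largely from dermal fibroblasts and acts on keratinocytes and melanocytes as a growth factor.

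DMBA is a ligand of the aryl hydrocarbon receptor, whose DNA element has the core GCGTG, so the promoters of the 2 tested binding proteins and of Igf1r are shown for that core. RefSeq promoters on mouse build GRCm38.p6 were matched for all 8 genes, and the 250 bases before each annotated start were read. The capitals mark GCGTG, or CACGC where the core lies on the opposite strand, and each sequence runs 5′ to 3′ on the gene's strand. The windows are chr11:7213924-7214173 on the minus strand for Igfbp3, chr11:99040994-99041243 on the plus strand for Igfbp4 and chr7:67952007-67952256 on the plus strand for Igf1r.
Igfbp3: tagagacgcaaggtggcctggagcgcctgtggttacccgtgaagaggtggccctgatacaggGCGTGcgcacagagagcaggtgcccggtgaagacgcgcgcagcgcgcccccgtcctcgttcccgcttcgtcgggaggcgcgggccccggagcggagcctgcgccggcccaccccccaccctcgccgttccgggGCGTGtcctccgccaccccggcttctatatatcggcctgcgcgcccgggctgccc
Igfbp4: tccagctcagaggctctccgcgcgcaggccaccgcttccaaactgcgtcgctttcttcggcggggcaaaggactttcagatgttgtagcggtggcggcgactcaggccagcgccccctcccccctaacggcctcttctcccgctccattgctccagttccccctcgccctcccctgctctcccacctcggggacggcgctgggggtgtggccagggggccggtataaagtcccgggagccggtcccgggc
Igf1r: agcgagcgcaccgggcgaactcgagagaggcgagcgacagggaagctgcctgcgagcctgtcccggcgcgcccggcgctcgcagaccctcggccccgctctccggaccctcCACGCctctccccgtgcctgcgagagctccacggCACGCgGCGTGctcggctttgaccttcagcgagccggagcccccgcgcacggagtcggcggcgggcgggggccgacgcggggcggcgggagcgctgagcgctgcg
The Igfbp3 window held 2 cores, whose first bases lie 188 and 55 bases before the start. In the Igfbp4 window there was none, and in the Igf1r window there were 3, at 139, 105 and 99 bases before the start. At least 1 core on either strand was found in 28.2% of 32851 promoter windows of this length, at least 2 in 8.63% and at least 3 in 2.77%. The longer form TNGCGTG, found in 4.1% of windows, was in none of the 3 shown and, of the other genes, in 1 of the 2 windows of Igfbp2. Of the windows not shown, the Igf2r window and 1 Igfbp2 window held 2 cores each, that of Igfbp7 held 1, and those of Igfbp5 and Igfbp6 held none. GC content was 73.2% in the Igfbp3 window, 69.2% in that of Igfbp4 and 77.6% in that of Igf1r, with 32, 22 and 42 CG dinucleotides, against medians of 52.4% and 6 over all windows. Such matches describe letters in these windows and do not show that a protein binds there.

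The libraries held between 6938406 and 8156905 counts. All 14 melanocyte markers checked, Dct and the receptor Kit among them, had counts in 8 of the 9 libraries and 13 of them in DMBA 1, and their summed level ranged from 1935 to 1995 FPKM with vehicle, from 1800 to 2483 FPKM after IR and from 1810 to 2103 FPKM after DMBA. FPKM is the count scaled by exonic length and library total, and it allows levels of different genes to be compared. Keratinocyte markers also had counts in every library: the summed level of 16 basal markers was 1838, 1534 and 2318 FPKM in vehicle 1 to 3, 3937, 831 and 1395 FPKM in IR 1 to 3, and 2634, 4050 and 3717 FPKM in DMBA 1 to 3. Markers of differentiated epidermis summed to 745 to 848 FPKM with vehicle, 325 to 2049 FPKM after IR and 1611 to 2403 FPKM after DMBA. Fibroblast markers were close to 0, between 1.21 and 2.64 FPKM in sum over 14 genes, with Lum, Mfap5, Crabp1, Lox and Twist2 at 0 everywhere. The summed level of 12 endothelial markers was between 0.13 and 1.47 FPKM, with Lyve1 at 0. Hair follicle stem cell markers summed to 58.4 to 84.2, Schwann cell markers to 101 to 132, and pericyte markers to 19.7 to 26.4 FPKM with vehicle, 33 to 34.6 FPKM after IR and 20.6 to 22.9 FPKM after DMBA.

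In these libraries the 2 receptors and 2 binding proteins, Igfbp3 and Igfbp4, were measured well enough to test. The count filter of edgeR kept these 4 genes among 16051 and removed Igfbp2, Igfbp5, Igfbp6 and Igfbp7, which had between 11 and 40 counts each over all 9 libraries. A gene was called changed at an adjusted p under 0.05 in the quasi-likelihood test of edgeR, adjusted by Benjamini-Hochberg over all 16051 genes. None of the 4 was called for IR against vehicle, where 0.735% of all tested genes were called. For DMBA against vehicle none was called either, in a comparison that called 0.0374% of tested genes. IR against DMBA gave 1 call, Igfbp3, lower in IR, where 0.978% of all tested genes were called in either direction and 0.0997% were called lower. At an unadjusted p under 0.05, none of the 4 passed for IR against vehicle, 1 (Igfbp3) for DMBA against vehicle and 2 (Igfbp3 and Igf2r) for IR against DMBA, beside 8.26, 6.7 and 8.12% of all tested genes. The median log2 fold change over all tested genes was -0.00, 0.01 and -0.02 in these comparisons. DESeq2 and limma on log2(FPKM + 1) called 0 of the 4 in each comparison, against 1.56, 0.168 and 1.88% of all genes by DESeq2 and 0.56, 0.00651 and 0.579% by limma. DMBA and IR are each set against the same vehicle libraries, and all comparisons share one estimate of the spread.

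**Figure D1:**
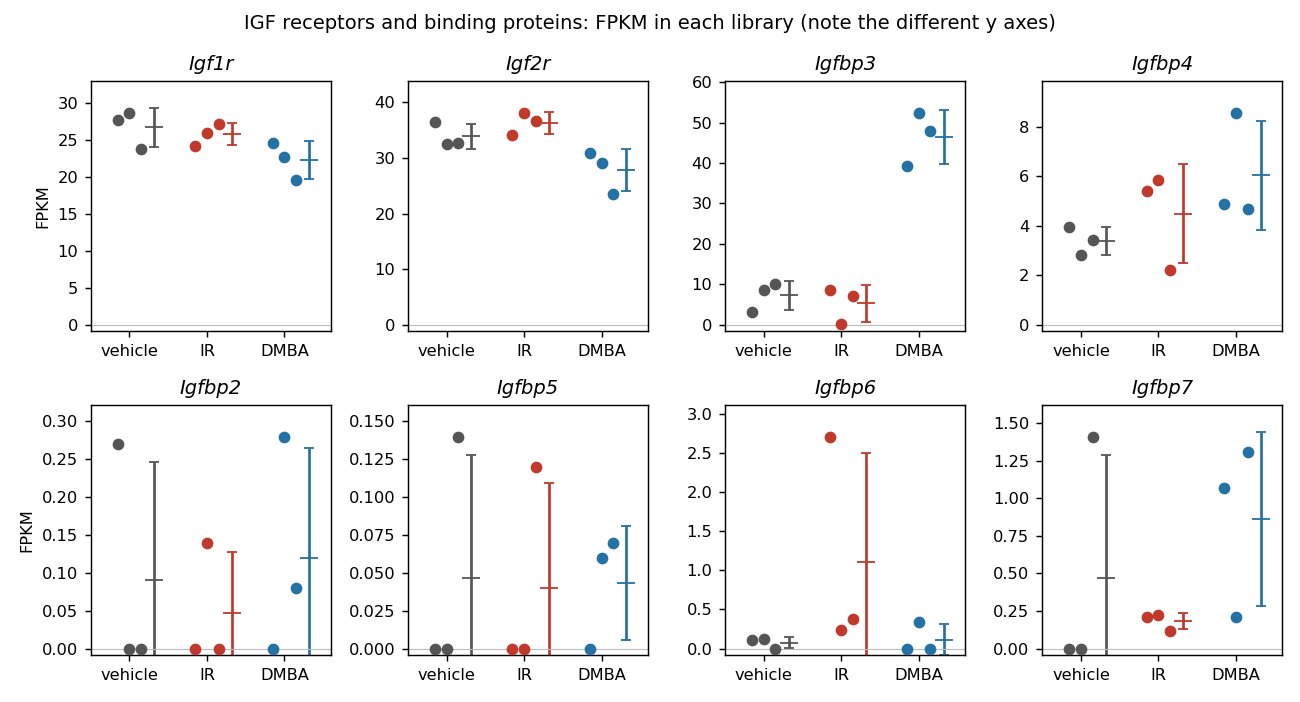
FPKM of the 8 genes in each library (points, in replicate order), with the mean and SD of 3 libraries per group (dash and bar, the axis ending just below 0). Each panel has its own y axis; Igfbp3 lies between 39.31 and 52.4 FPKM in the DMBA libraries and between 0.13 and 10.03 FPKM in the other 6, while the 2 receptors lie between 19.53 and 38.14 FPKM throughout.

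Both receptors were expressed at a high level in every library. Igf1r (ENSMUSG00000005533), the signalling receptor, lies at 67602575 to 67883416 on the plus strand of chromosome 7, by the coordinates of the deposited table, whose build is not named in the sources used here. It measured 27.69, 28.65 and 23.72 FPKM in vehicle, 24.14, 25.96 and 27.12 FPKM in IR, and 24.55, 22.7 and 19.53 FPKM in DMBA libraries. The group means were 26.7 ± 2.61, 25.7 ± 1.5 and 22.3 ± 2.54 FPKM (SD, n = 3 each), which placed Igf1r above 90.9, 90.3 and 88.0% of tested genes. The DMBA libraries tended to the lower end, but the range of each group overlapped those of both other groups. By edgeR the log2 fold change was -0.04 ± 0.15 (SE) for IR against vehicle (adjusted p = 0.99), -0.29 ± 0.15 for DMBA against vehicle (adjusted p = 0.748) and 0.25 ± 0.15 for IR against DMBA (adjusted p = 0.752).

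Igf2r (ENSMUSG00000023830), the mannose 6-phosphate and IGF2 uptake receptor, lies at 12901293 to 12988551 on the minus strand of chromosome 17. Its level was 36.46, 32.46 and 32.79 FPKM in vehicle, 34.19, 38.14 and 36.68 FPKM in IR, and 30.85, 29.18 and 23.55 FPKM in DMBA libraries. All 3 DMBA libraries were below every vehicle and every IR library, while vehicle and IR overlapped. Means were 33.9 ± 2.22, 36.3 ± 2 and 27.9 ± 3.82 FPKM (SD, n = 3 each). The log2 fold change was -0.31 ± 0.15 (SE) for DMBA against vehicle (edgeR, unadjusted p = 0.0558, adjusted p = 0.748) and 0.42 ± 0.15 for IR against DMBA (unadjusted p = 0.0128, adjusted p = 0.351). Groups that did not overlap were found in 13.7% of tested genes for DMBA against vehicle, 6.19% lower in DMBA, and in 14.9% for IR against DMBA, 7.89% higher in IR. For IR against vehicle the log2 fold change was 0.11 ± 0.15 (adjusted p = 0.964). Igf2r overlaps the non-coding gene Airn, transcribed on the opposite strand, by 28354 bases, and Airn had 735 counts against 20734 for Igf2r. Whether the deposited counts use the strand is not given in the sources used here, so reads of the shared stretch cannot be told apart.

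Set against related receptors in the same libraries, ratios of FPKM chosen after the values were seen gave the following. The ratio of Igf1r to Insr, the insulin receptor, which pairs with IGF1R in hybrid receptors, averaged 2.36 ± 0.36 with vehicle, 2.44 ± 0.361 after IR and 1.87 ± 0.4 after DMBA (SD, n = 3 each). Igf2r stood at 1.89 ± 0.391, 1.59 ± 0.125 and 1.17 ± 0.143 times the level of M6pr, the smaller mannose 6-phosphate receptor. M6pr itself averaged 18.4 ± 3.75, 23 ± 2.54 and 23.9 ± 0.375 FPKM in vehicle, IR and DMBA. Its log2 fold change was 0.34 ± 0.19 (SE) for DMBA against vehicle (edgeR, adjusted p = 0.776) and -0.01 ± 0.19 for IR against DMBA. Against vehicle, the ratio therefore depends on both genes. In the DMBA libraries this second ratio lay between 1.01 and 1.28, below the 1.45 to 1.69 of IR and the 1.58 to 2.33 of vehicle. The exact two-sided permutation p was 0.10 for DMBA against vehicle and for IR against DMBA, the smallest that 3 against 3 libraries allow, and 0.23 after adjustment over the 9 ratio tests made. For the first ratio the exact p was 0.20 in both of those comparisons and 0.70 for IR against vehicle. Igf2r exceeded Igf1r in every library, by ratios between 1.13 and 1.47.

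Igfbp3, the main IGF carrier, had the largest differences between groups of the 4 tested genes. The gene (ENSMUSG00000020427) lies at 7156086 to 7163923 on the minus strand of chromosome 11, next to Igfbp1 on the opposite strand, 3539 bases away. In vehicle libraries Igfbp3 measured 3.29, 8.51 and 10.03 FPKM, from 84, 201 and 221 counts. IR libraries gave 8.59, 0.13 and 7.12 FPKM, from 214, 3 and 158 counts. DMBA libraries gave 39.31, 52.4 and 47.8 FPKM, from 953, 1291 and 1038 counts. Every DMBA library was thus above every vehicle and IR library, vehicle and IR overlapped, and IR 2 stood far below the other 8 libraries with 3 counts. Group means were 7.28 ± 3.54, 5.28 ± 4.52 and 46.5 ± 6.64 FPKM (SD, n = 3 each), which placed Igfbp3 above 61.8% of tested genes in vehicle, 52.9% in IR and 95.6% in DMBA. Its level exceeded those of Igf1r and Igf2r in each of the 3 DMBA libraries and was below both in each of the other 6.

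Between IR and DMBA, Igfbp3 was 8.6-fold lower in IR, a log2 fold change of -3.10 ± 0.66 (SE), called by edgeR at an adjusted p of 0.0223 and ranked 118 by p among the 16051 genes. The test for any difference among the 3 groups called it too (adjusted p = 0.0133), with 1.07% of all genes. Against vehicle, the DMBA level was 6.24-fold higher in the fit, 2.64 ± 0.64 (SE) on the log2 scale, but this was not called (unadjusted p = 0.000636, adjusted p = 0.423). By unadjusted p it ranked 24 in that comparison, and 319 of the 16051 genes had as large a fold in either direction. Groups without overlap, with DMBA higher, were seen in 7.51% of tested genes for DMBA against vehicle, and groups without overlap with IR lower in 6.98% for IR against DMBA. IR against vehicle gave a log2 fold change of -0.46 ± 0.63 (adjusted p = 0.961).

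**Figure D2:**
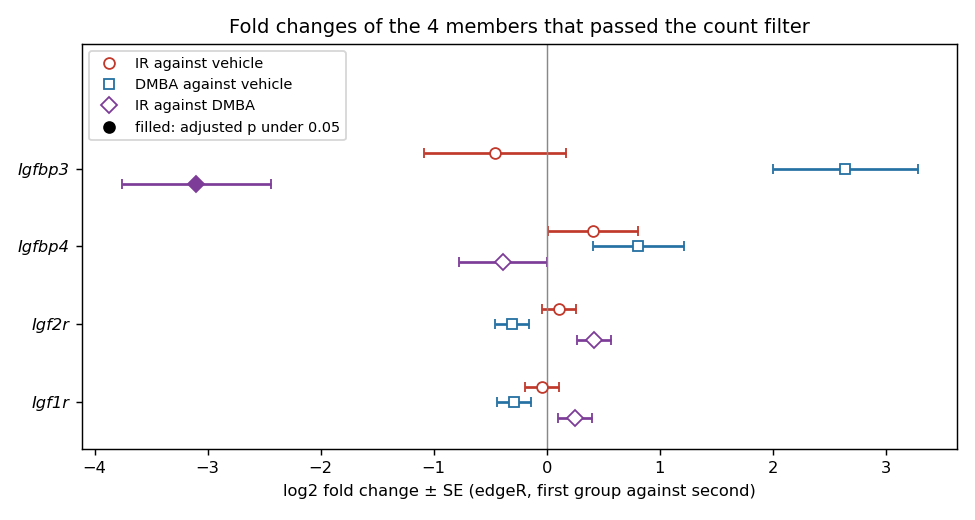
Log2 fold change (x axis) with its SE (bars) from edgeR for the 4 genes that passed the count filter (rows) in the 3 comparisons, filled where the adjusted p is under 0.05. The filled point is Igfbp3 in IR against DMBA at -3.10 ± 0.66; Igfbp3 in DMBA against vehicle, at 2.64 ± 0.64, is open.

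Whether Igfbp3 was called changed with the libraries, the count filter and the test used. Without IR 2, DMBA against vehicle gave 2.64 ± 0.30 (edgeR, adjusted p = 0.000281, with 0.0936% of genes called), and IR against DMBA gave -2.53 ± 0.35 (adjusted p = 0.000361, with 0.579% called). In a fit to the vehicle and DMBA libraries alone, Igfbp3 was called for DMBA against vehicle at 2.64 ± 0.30 (adjusted p = 0.000112, with 0.294% of genes called), and without IR 1 at 2.63 ± 0.53 (adjusted p = 0.0401, with 0.146% called). With no count filter it was called as well, among 0.512% of genes (adjusted p = 9.43e-22). The SE in that fit was 0.25, against 0.64 with the filter. Its p-values thus rest on a smaller estimate of the spread and are not comparable with the others. The call for IR against DMBA was lost without DMBA 2 (adjusted p = 0.0526), without DMBA 3 (0.08), in a fit to those 2 groups alone (0.0702, with 0.904% of genes called), with DESeq2 (0.142) and with limma (0.102). Over 22 alternatives the log2 fold change stayed between 1.78 and 2.94 for DMBA against vehicle, called in 4 of them (adjusted p from 9.43e-22 to 0.975), and between -4.25 and -2.3 for IR against DMBA, called in 14 of them (adjusted p from 6.97e-30 to 0.274). The lowest adjusted p of each range is from the fit with no count filter.

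**Figure D3:**
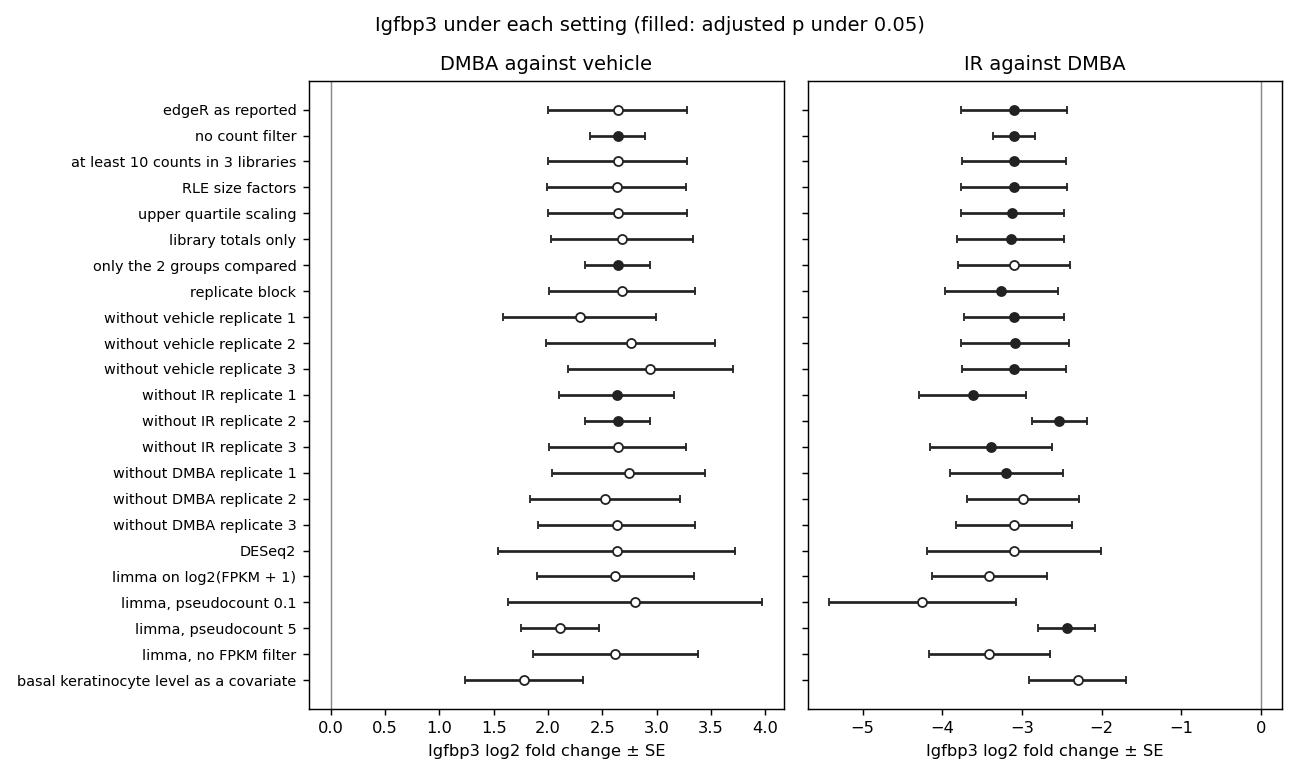
Igfbp3 log2 fold change (x axis) with its SE (bars) for DMBA against vehicle (left) and IR against DMBA (right) under the reported fit and 22 alternatives (rows), filled where the adjusted p is under 0.05. The direction is the same in every row, from 1.78 to 2.94 on the left and from -4.25 to -2.3 on the right, while the call comes and goes with the libraries and the test.

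Keratinocyte RNA moved with Igfbp3 in part. The 3 DMBA libraries, with basal marker sums of 2634 to 4050 FPKM, were above the vehicle range of 1534 to 2318 FPKM, and IR 2, the library with 3 Igfbp3 counts, had the lowest sum, 831 FPKM. IR 1 had a basal sum of 3937 FPKM and a differentiated epidermis sum of 2049 FPKM, both inside the DMBA range, and its Igfbp3 level was 8.59 FPKM, inside the vehicle range. Per 1000 FPKM of basal keratinocyte markers, Igfbp3 measured 1.79, 5.55 and 4.33 in vehicle, 2.18, 0.156 and 5.1 in IR, and 14.9, 12.9 and 12.9 in DMBA libraries. On this scale too the DMBA libraries did not overlap the others, with an exact permutation p of 0.10, two-sided, against each of the other groups (0.23 adjusted over the 9 ratio tests). With the basal marker level of each library as a covariate, which was added with the data in view, the log2 fold change was 1.78 ± 0.54 for DMBA against vehicle (adjusted p = 0.785, with 0.0623% of all genes called) and -2.30 ± 0.61 for IR against DMBA (adjusted p = 0.0878, with 0.891% called), not called in either. In sorted bulk RNA, a different number of cells of a type and a different amount of RNA per cell cannot be told apart. The data do not show which cells the RNA of Igfbp3, of Igfbp4 or of the receptors came from.

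**Figure D4:**
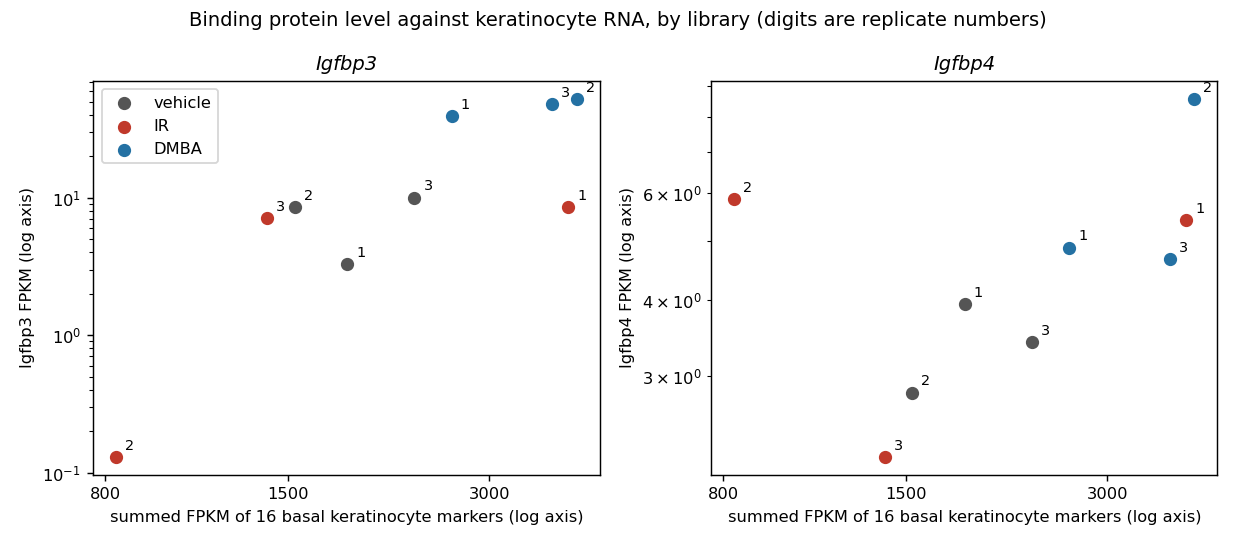
Igfbp3 (left) and Igfbp4 (right) FPKM against the summed FPKM of 16 basal keratinocyte markers in each of the 9 libraries, both axes logarithmic, digits giving the replicate number. IR 1, at a marker sum of 3937 FPKM, lies at 8.59 FPKM of Igfbp3, while the 3 DMBA libraries at sums of 2634 to 4050 FPKM lie between 39.31 and 52.4 FPKM.

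The genes whose levels followed Igfbp3 most closely over the 9 libraries, by the smallest root mean square difference of centred log2 CPM, the count scaled to the library total, were Fam83c, Ptgs2 and Rdh12. Fam83c differed by 0.67, Ptgs2, the inducible prostaglandin synthase COX-2, by 0.74, and Rdh12, a retinol dehydrogenase, by 0.94, where the median over 12872 genes was 2.34. Fam83c averaged 8.52 ± 6.69, 6.07 ± 7.68 and 39.6 ± 15.3 CPM in vehicle, IR and DMBA (SD, n = 3 each). Ptgs2 was at 1.84, 8.75 and 3.74 CPM in vehicle, 1.75, 0 and 4.76 CPM in IR, and 11.8, 24.5 and 20.7 CPM in DMBA libraries. The means for Rdh12 were 6.9 ± 1.45, 4.03 ± 4.91 and 17.1 ± 5.62 CPM. In IR 2, Fam83c stood at 0.135 CPM and both Ptgs2 and Rdh12 had 0 counts, so the low library is part of the likeness. None of the 3 was called by edgeR in a comparison of 2 groups, the smallest adjusted p being 0.151, for Ptgs2 in IR against DMBA.

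Igfbp4, a binding protein cut by PAPPA and generally inhibitory to IGF action, was low but present everywhere. It lies at 98932070 to 98945218 on the plus strand of chromosome 11 (ENSMUSG00000017493). Its level was 3.94, 2.82 and 3.41 FPKM in vehicle, 5.41, 5.86 and 2.21 FPKM in IR, and 4.88, 8.57 and 4.67 FPKM in DMBA libraries. The DMBA libraries were all above the vehicle libraries, which held, in that direction, for 7.51% of tested genes, and of the IR libraries 1 was below the vehicle range and 2 were inside the DMBA range. Means were 3.39 ± 0.56, 4.49 ± 1.99 and 6.04 ± 2.19 FPKM (SD, n = 3 each), from 69 to 298 counts a library. The log2 fold change was 0.81 ± 0.40 (SE) for DMBA against vehicle (edgeR, unadjusted p = 0.0571, adjusted p = 0.748), 0.41 ± 0.40 for IR against vehicle (adjusted p = 0.9) and -0.39 ± 0.39 for IR against DMBA (adjusted p = 0.919). IR 2, the library with the lowest basal keratinocyte sum and 3 Igfbp3 counts, had the second highest Igfbp4 level. The genes most like Igfbp4 by the same measure were Nabp2, a single-stranded DNA binding protein, at 0.20, Ndufs8, a respiratory complex I subunit, at 0.22, and Desi1 at 0.25, against a median of 0.69.

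Igfbp2, Igfbp5, Igfbp6 and Igfbp7 were at or near the limit of detection, and no fold change is given for them. A total of 3 counts, the limit that a count of 0 allows, corresponds to 0.368 to 0.432 CPM in these libraries, for counting error only. Igfbp2, a carrier abundant in fetal tissues and in many tumours, had 4, 0 and 0 counts in vehicle, 0, 2 and 0 in IR, and 0, 4 and 1 in DMBA libraries. Igfbp5, a matrix-bound member, had 0, 0 and 6 counts in vehicle, 0, 0 and 5 in IR, and 0, 3 and 3 in DMBA libraries. Igfbp2 and Igfbp5 lie 5457 bases apart on chromosome 1, on opposite strands, at 72863662 to 72891633 and 72897091 to 72914043. Igfbp7, known for its low affinity for IGFs, had 0, 0 and 12 counts in vehicle, 2, 2 and 1 in IR, and 10, 2 and 11 in DMBA libraries. The 3 highest Igfbp7 counts were spread over vehicle 3, DMBA 1 and DMBA 3, at 1.41, 1.07 and 1.31 FPKM, and the 2 other vehicle libraries had none. Igfbp7 (chromosome 5, 77497087 to 77555888) overlaps Polr2b, on the opposite strand with 5359 counts, by 85 bases.

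Igfbp6, which prefers IGF2 over IGF1, stood out in a single library. It had 1, 1 and 0 counts in vehicle, 24, 2 and 3 in IR, and 0, 3 and 0 in DMBA libraries, so that 24 of its 34 counts were in IR 1 (2.71 FPKM). The gene lies at 102052797 to 102057946 on the plus strand of chromosome 15. IR 1 also had the most immune cell markers, 10 of 14 with counts and a sum of 56 FPKM, against 3 to 8 markers and sums of 21.2 to 51.4 FPKM in the other 8 libraries. In that library Ptprc, the pan-leukocyte marker CD45, had 23 counts, the gamma-delta T cell receptor gene Trdc 23, the Langerhans cell lectin Cd207 40 and the MHC class II chaperone Cd74 364. The other libraries held 0 to 9 counts of Ptprc, 0 to 2 of Trdc, 0 to 14 of Cd207 and 20 to 135 of Cd74. These genes were chosen after their values were seen, and the other immune markers that had counts are not given singly. The summed level did not follow the named genes in every library. Vehicle 2, with a sum of 51.4 FPKM, had 0 counts of Ptprc, Trdc and Cd207 and 131 of Cd74. Lyz2, Mcpt4 and Cpa3 were at 0 in all libraries. IR 1 was not set apart by immune markers alone. Its hair follicle stem cell markers summed to 84.2 FPKM, against 58.4 to 73.1 FPKM in the other 8 libraries. Its basal keratinocyte sum of 3937 FPKM and differentiated epidermis sum of 2049 FPKM were above those of every vehicle library and of the other IR libraries. The part of any of these cell types in the Igfbp6 counts was not tested.

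By level, Igfbp3 supplied most of the binding protein RNA in every DMBA library. Its share of the summed FPKM of the 6 binding proteins was 43.2, 74.3 and 66.9% in vehicle, 50.8, 1.97 and 71.6% in IR, and 86.9, 84.7 and 88.6% in DMBA libraries. The share was higher in each DMBA library than in each of the other 6, and in IR 2 most of the rest was Igfbp4. These shares follow from the Igfbp3 values above and were not tested.

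The ligands were hardly measured in these libraries. Igf1, Ins1 and Ins2 had 0 counts in all 9 libraries, and Igf2 had 13, 13 and 0 counts in vehicle libraries and 0 in the 6 others. Igfbp1 had 3 counts in all, in vehicle 3. Insr averaged 11.4 ± 0.674 FPKM with vehicle, 10.8 ± 2.24 FPKM after IR and 12.1 ± 1.55 FPKM after DMBA (SD, n = 3 each).

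Of the other genes of the pathway, 119 symbols, some of them older names of the same gene, were listed in 6 groups, 112 were in the table and 78 were tested. By edgeR at an adjusted p under 0.05, 1 of the 78 was called for IR against vehicle (higher in IR), 0 for DMBA against vehicle and 1 for IR against DMBA (higher in IR), beside 0.71% and 0.878% of all tested genes called higher in IR in the first and last of these. At an unadjusted p under 0.05 the numbers were 9, 4 and 13 of the 78, beside 8.26, 6.7 and 8.12% of all tested genes. The called gene was Mmp2 in both cases, a gelatinase that cuts several IGFBPs along with matrix proteins. It had 38, 30 and 0 counts in vehicle, 308, 422 and 254 in IR, and 67, 29 and 25 in DMBA libraries. Every IR library was above all others, which held, in the same direction, for 7.67% of tested genes against vehicle. Mmp2 rose in IR by 3.90 ± 0.71 (SE) on the log2 scale against vehicle (adjusted p = 0.00793) and was higher by 3.06 ± 0.68 than in DMBA (adjusted p = 0.0323). The second call was lost without IR 2 (adjusted p = 0.133), IR 3 (0.0675), DMBA 2 (0.131) or DMBA 3 (0.192), and with DESeq2 (0.133). The summed level of pericyte markers, among them Cspg4, which pigment cells also express, was between 33 and 34.6 FPKM in IR and between 19.7 and 26.4 FPKM in the other libraries. Of the 10 markers, 4 to 7 had counts in each IR library and 4 to 8 in each of the others, and they are not given singly. The part of pericytes in the Mmp2 result was not tested.

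**Figure D5:**
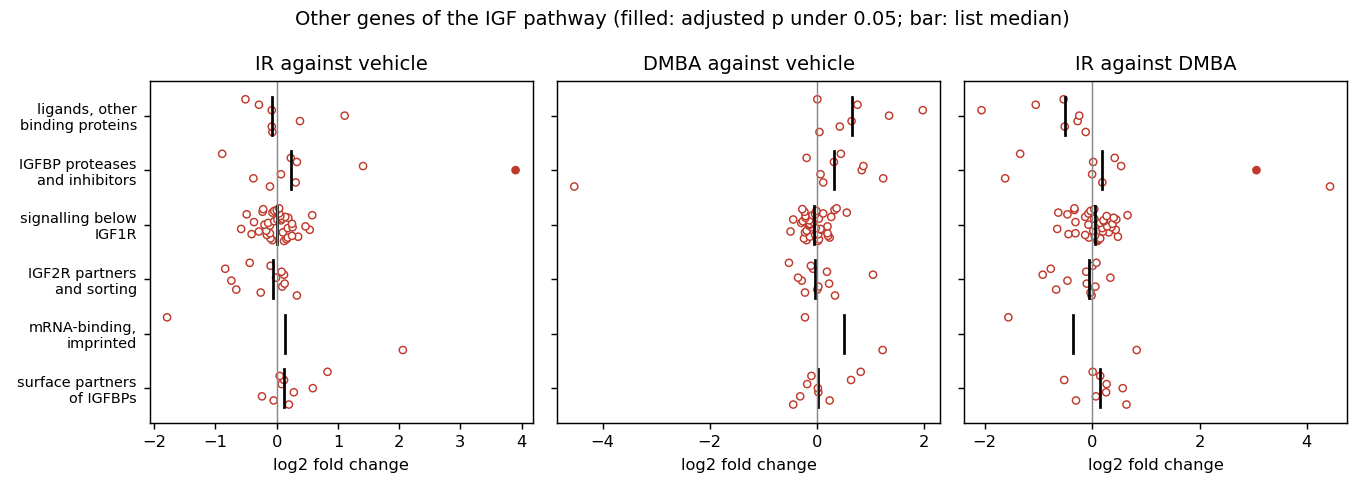
Log2 fold change (x axis) of each tested gene of the 6 pathway lists (rows) in the 3 comparisons, with the median of each list as a bar and genes at an adjusted p under 0.05 filled. The filled point in the left and right panels is Mmp2 at 3.90 and 3.06; the point at -4.53 in the middle panel and 4.43 in the right panel is Pappa, with 6 counts in the DMBA libraries.

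Among the proteases and their inhibitors, 9 of 21 listed genes were tested, and the medians of the log2 fold changes were 0.23, 0.32 and 0.19 for IR against vehicle, DMBA against vehicle and IR against DMBA. Pappa, the metalloproteinase that cuts IGFBP4, had 18, 91 and 37 counts in vehicle, 64, 70 and 6 in IR, and 0, 0 and 6 in DMBA libraries. The DMBA libraries held 6 counts or fewer each, as did IR 3. The fitted log2 fold change was -4.53 ± 1.30 (SE) for DMBA against vehicle (unadjusted p = 0.0026, adjusted p = 0.518), and 4.43 ± 1.29 for IR against DMBA (adjusted p = 0.166), neither called by edgeR. DESeq2 called the latter (adjusted p = 0.0113). The list of ligands, further binding proteins and related receptors had 7 tested genes of 24 symbols, none called, with medians of -0.08, 0.65 and -0.51. Its 2 genes of smallest p, Ccn1 and Ccn6, both secreted proteins with an IGFBP-like domain, averaged 110.0 ± 19.4, 104.0 ± 51.6 and 151.0 ± 31.0 FPKM and 0.483 ± 0.425, 0.453 ± 0.474 and 2.01 ± 0.817 FPKM in vehicle, IR and DMBA (SD, n = 3 each).

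Below IGF1R, 39 of 41 listed adaptor and signalling genes were tested and none was called in any comparison, with medians of 0.01, -0.06 and 0.05. The adaptors Irs1 and Irs2, which couple the receptor to PI3 kinase, were present in every library. Irs1 measured 13.0 ± 1.46, 14.0 ± 1.68 and 13.5 ± 2.28 FPKM in vehicle, IR and DMBA, and Irs2 84.1 ± 1.61, 79.3 ± 6.41 and 75.5 ± 6.08 FPKM (SD, n = 3 each). Foxo3, a transcription factor that AKT keeps out of the nucleus, was at 55.17, 57.86 and 42.36 FPKM in vehicle, 72.91, 84.43 and 73.76 FPKM in IR, and 51.38, 57.9 and 41.02 FPKM in DMBA libraries. All 3 IR libraries lay above the other 6; groups without overlap, with IR higher, were seen in 7.67% of tested genes against vehicle and in 7.89% against DMBA. The log2 fold change of Foxo3 was 0.58 ± 0.17 (SE) for IR against vehicle (edgeR, adjusted p = 0.184) and 0.66 ± 0.17 for IR against DMBA (adjusted p = 0.0853), not called by edgeR, while DESeq2 called both (adjusted p = 0.0354 and 0.00592). Pik3r2, a regulatory subunit of PI3 kinase, was at 21.2 ± 2.64, 14.1 ± 1.06 and 22.9 ± 5.11 FPKM (adjusted p = 0.327 for IR against vehicle and 0.197 for IR against DMBA).

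The lists around IGF2R and the cell surface gave no edgeR call. In the list of IGF2R partners and mannose 6-phosphate sorting, 12 of 13 genes were tested, with medians of -0.05, -0.03 and -0.07. Gnptab, a subunit of the enzyme that starts the mannose 6-phosphate tag, was at 16.6 ± 5.89, 9.87 ± 1.8 and 14.0 ± 0.65 FPKM in vehicle, IR and DMBA, and Nagpa, the enzyme that uncovers the tag, at 4.71 ± 1.36, 5.09 ± 0.666 FPKM in vehicle and IR and at 9.26, 8.42 and 12.34 FPKM in the DMBA libraries (SD, n = 3 each). The adjusted p was 0.263 for Gnptab in IR against vehicle and 0.651 for Nagpa in DMBA against vehicle. Of 11 cell-surface partners of the binding proteins in the table, 9 were tested, with medians of 0.12, 0.02 and 0.15. Its genes of smallest p were the integrin subunit Itgav, at 11.2 ± 1.97, 16.7 ± 3.2 and 11.5 ± 2.48 FPKM, and the caveolar protein Cav1, at 10.8 ± 2.52, 11.8 ± 7.14 and 17.4 ± 4.32 FPKM. Only Igf2bp2 and Igf2bp3, which bind Igf2 mRNA, were tested of 8 mRNA-binding and imprinted neighbour genes, and both were low, at 0.263 ± 0.265, 1.07 ± 1.11 and 0.643 ± 0.578 FPKM and at 0.277 ± 0.479, 0.08 ± 0.0721 and 0.24 ± 0.0866 FPKM.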

How the data were processed

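RNA-seq libraries of sorted melanocyte stem cells were made from column-purified total RNA with a stranded SMARTer kit, per the labels' protocols. The submitters' processing notes list, without role or order, HISAT2 2.0.1, HTSeq 0.6.1, cutadapt 1.9.1 and bcl2fastq 2.17.1.14. The build, the annotation and the use of strand in counting were not given in the sources used here. The authors deposited 1 table with whole-number read counts per gene and FPKM per gene, each library in a column of its own, with 0 further columns of per-sample values. FPKM recomputed from the deposited counts, exonic sizes and column totals was within 0.0050 of the deposited FPKM. The 1438 genes with no symbol carry a gene identifier and were kept.

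Groups and replicate numbers came from the sample titles. Counts were tested with edgeR 4.0.16 (R 4.3.3): filterByExpr, TMM scaling, 3 group means over all 9 libraries, two-sided quasi-likelihood tests and Benjamini-Hochberg adjustment over 16051 genes, called under 0.05. The biological coefficient of variation was 49%. No 2 libraries of a group were duplicates (chi-square per degree of freedom 14.95 to 36.29). Alternatives were other count filters and scalings, the compared groups alone, a block on replicate number, the omission of each library in turn, DESeq2 1.42.0, and limma 3.58.1 on log2(FPKM + 1) where at least 3 libraries reached an FPKM of 1, with pseudocounts of 0.1 and 5 and without the filter. The alternative with the basal keratinocyte level as a covariate was added after the data were seen.

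The members, the gene lists and the rule for named genes were chosen with earlier results of these data known. The rule names all 8 members; Igf1, Igf2, Insr, Irs1, Irs2, Foxo3 and Pappa, and 1 gene not reported here; each called list gene; the 2 genes of smallest p per list in the 3-group test; and the 3 genes most like each tested member whose SD of log2 CPM over the libraries (prior count 2) is at least 0.5, which were Igfbp3 and Igfbp4. M6pr and the immune genes named beside Igfbp6 were chosen after their values were seen. Promoter sequences are from RefSeq. Coordinates of the table and of the promoters are on different builds. Other software was matplotlib 3.10.9, scipy 1.17.1, numpy 2.4.6 and pandas 2.3.3 under Python 3.11.15.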

Additional observations from a re-analysis of the deposited data

How the results depend on the processing

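Over 22 alternatives, no member was called for IR against vehicle. For DMBA against vehicle, where edgeR called 0 members, 1 (Igfbp3) was called with no count filter and in a fit to the 2 groups compared, and 0 to 1 with each library left out in turn. For IR against DMBA, where edgeR called 1 member, 0 were called in a fit to the 2 groups compared, with DESeq2, with limma at pseudocounts of 1 and 0.1 and without its FPKM filter, and with the keratinocyte covariate, and 0 to 1 with each library left out. The sign turned for Igfbp3 in IR against vehicle without IR 2 (0.11; with each library left out, -0.99 to 0.11) and for Igf1r in IR against vehicle without vehicle 2 (0.01) or IR 1 (0.02; range -0.12 to 0.02), none of them called. The direction held in all 22 alternatives for every other fold change of a member.

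Of the other pathway genes, 1 was called for IR against vehicle, 2 with DESeq2 (Foxo3 and Mmp2), 0 with limma at a pseudocount of 0.1, and 1 in each fit that left a library out. For DMBA against vehicle the count was 0, and 1 (Pappa) with no count filter. For IR against DMBA it was 1, against 3 with no count filter (Foxo3, Mmp2 and Pappa), 2 with DESeq2 (Foxo3 and Pappa), 0 with limma at a pseudocount of 0.1 or without its FPKM filter, and 0 to 5 with each library left out, the highest without IR 1 (Ccn1, Foxo3, Hras, Htra1 and Mmp2).

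The replicate number as a block left the calls among members as they were (Igfbp3 in IR against DMBA at -3.26, adjusted p = 0.0408) and gave 2 pathway genes for IR against DMBA (Foxo3 and Mmp2). No pairing by number was seen in the values: 0 of 9 same-number pairs of libraries had a correlation of deviations over 0.1 (-0.087 to 0.042). Of the 9 libraries, 3 correlated best with their own number. Such correlations cannot show whether same-numbered libraries were collected or processed together.

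Over all genes, 118, 6 and 157 calls for IR against vehicle, DMBA against vehicle and IR against DMBA became 251, 27 and 301 with DESeq2, 236, 159 and 371 with no count filter, 107, 5 and 142 with the block, 177, 10 and 143 with the covariate, 86, 1 and 89 with limma, 69, 1 and 73 at a pseudocount of 0.1, 86, 2 and 101 at 5, and 49, 1 and 58 without its filter. DMBA against vehicle gave 44 in a fit to its 2 groups, 25 without IR 1 and 16 without IR 2, and IR against DMBA 421 without IR 1, 99 without IR 2 and 96 without DMBA 3. The causes of these shifts were not tested. With 3 libraries a group and a coefficient of variation of 49%, a missed threshold does not show equal levels, and Igfbp2, Igfbp5, Igfbp6 and Igfbp7 were too low to compare.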
